A study of Mus musculus with 4 samples.

Results

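Glycolysis enzymes are described here in intestinal stem cells with and without CREPT, a protein encoded by Rprd1b that binds RNA polymerase II and takes part in transcription. The 10 genes were taken by symbol, in pathway order, and are Hk1, Hk2, Gpi1, Pfkl, Aldoa, Tpi1, Pgk1, Eno1, Pkm and Ldha. All 10 were found among the 18436 genes of the deposited expression table, and all 10 averaged 0.5 FPKM or more across the 4 mice and so were tested, among 12621 genes in all. FPKM counts sequenced fragments relative to the length of the transcript and to the size of the library, so that levels can be set side by side between genes.

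The question of the comparison was what the loss of CREPT does to gene expression in Lgr5+ stem cells. RNA was sequenced from Lgr5-GFPhigh cells, the brightest GFP cells sorted from dissociated intestinal crypts, of 2 Lgr5-WT and 2 Lgr5-CREPTKO mice on the C57BL/6 background. The Lgr5-WT mice were Lgr5-GFP-CreERT2 mice, in which the Lgr5 gene drives GFP together with a Cre recombinase that tamoxifen switches on, and the Lgr5-CREPTKO mice carried CREPT fl/fl in addition, with exon 3 of Rprd1b flanked by loxP sites. Both genotypes therefore carried the Lgr5-driven Cre, and both were given 5 daily tamoxifen injections of 1 mg, with sorting on day 7. The study used male and female mice of 6 to 8 weeks, and the sex of each mouse is not given in the sources used here. This Lgr5 allele is known to be expressed in a patchwork of crypts, and each library is a pool of the sorted cells of 1 mouse.

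Glycolysis splits glucose into pyruvate in the cytosol, in a first phase that spends ATP and a second phase that returns it, and lactate dehydrogenase can then reduce the pyruvate to lactate. Most steps are shared by several isozymes that differ between tissues. Kinases at the start, middle and end of the pathway carry out its irreversible steps, and the steps between them are reversible and also serve gluconeogenesis. Crypt base stem cells and the Paneth cells beside them are known to differ in how much they rely on glycolysis and on mitochondria.

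Rprd1b itself stood at 17.7 and 18.1 FPKM in the Lgr5-WT mice and at 6.65 and 7.36 FPKM in the Lgr5-CREPTKO mice. Its transcript was lower by a log2 fold change of -1.29 (SE 0.09, limma's moderated test, Benjamini-Hochberg adjusted p = 0.0280), so that message remained in the sorted cells at 39.2% of the Lgr5-WT mean. Library totals of FPKM were 495758 and 499327 for Lgr5-WT and 468830 and 473662 for Lgr5-CREPTKO, and the depth in reads is unknown. Of 10 stem cell markers, including Lgr5 and Olfm4, none was called by limma in either direction, and 9 were higher in Lgr5-CREPTKO mice. Without overlap 8 were higher, against 25.6% of all genes tested. By limma 5 had an unadjusted p below 0.05 in the higher direction, against 9.27% of all genes tested. The markers summed to 6230 and 6037 FPKM in Lgr5-WT mice and to 6768 and 6555 FPKM in Lgr5-CREPTKO mice. Over all genes tested, 337 were called lower and 52 higher at an adjusted p below 0.05, or 243 lower and 85 higher once the FPKM of every mouse were rescaled to the same total.

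None of the 10 glycolysis enzymes was called in either direction by limma's moderated test, and 1 of them, Ldha, had an unadjusted p below 0.05. Over all genes tested, 15.2% had such a p in the lower direction. After every mouse was rescaled to the same FPKM total, 4 of the 10 had an unadjusted p below 0.05 by limma. These were Gpi1, Pfkl, Eno1 and Pkm, all higher in Lgr5-CREPTKO mice, and Ldha was no longer among them. Of the 12621 genes tested, 1409 had such a p in the lower and 1960 in the higher direction after that rescaling. Across all genes tested 2.67% were called lower and 0.412% higher, so 0 of 10 is near that background. Each fold change among the 10 enzymes was small, between -0.26 for Ldha and 0.22 for Pfkl on the log2 scale of FPKM + 0.5. On that scale and without rescaling, every one of the 10 confidence intervals (95%) stayed within a 1.5-fold change in either direction. The widest limits were 0.712 for Ldha and 1.49 for Hk1, as ratios of FPKM + 0.5. Intervals after rescaling are not given, and the log2 fold changes of Hk1 and Hk2 were then 0.15 and 0.24. Hk1 averaged 1.39 FPKM, so the added 0.5 understates its change, and its limits on plain FPKM are not given. In bulk RNA, fewer cells of a type and less RNA per cell cannot be told apart. The p-values rest on the spread between these 2 mice per genotype, drawn toward a trend with level over all genes tested.

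**Figure D1:**
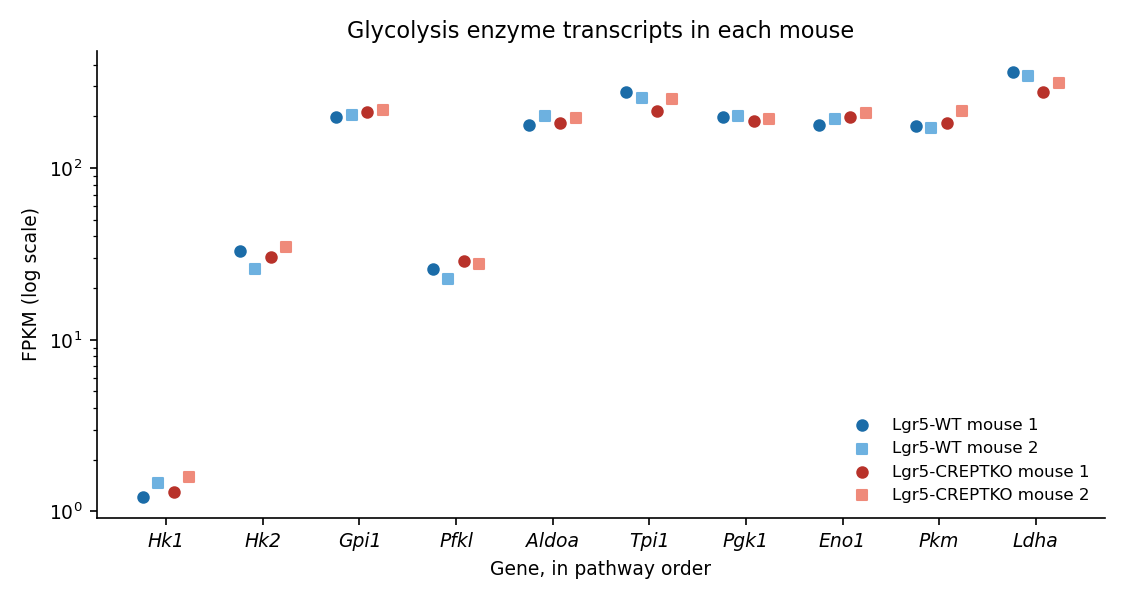
FPKM of the 10 glycolysis enzymes on a log axis, in pathway order from left to right, with 1 point per mouse (blue, Lgr5-WT; red, Lgr5-CREPTKO; circle, mouse 1; square, mouse 2). The 7 abundant enzymes lie between 171 and 363 FPKM, Hk2 and Pfkl between 22.7 and 34.8, and Hk1 between 1.22 and 1.58 in every mouse, whatever the genotype.

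The enzymes fell into 3 tiers of level. The upper tier held 7 of the 10, with means over the 4 mice from 186 FPKM for Pkm to 325 FPKM for Ldha. By level these 7 stood at percentiles 97.3 to 98.5 of all genes tested. Hk2 and Pfkl, the enzymes of the early kinase steps, averaged 31.0 and 26.3 FPKM, and Hk1 averaged 1.39 FPKM, at percentile 11.1 of all genes tested.

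From the highest to the lowest mean the order was Ldha, Tpi1, Gpi1, Eno1, Pgk1, Aldoa, Pkm, Hk2, Pfkl and Hk1. Of the 9 neighbouring pairs in that order, 7 had ranges that overlapped over the 4 mice. The 2 separated pairs were Pkm above Hk2 and Pfkl above Hk1. Ldha stood above Tpi1 and Tpi1 above Gpi1 within each of the 4 mice, although their ranges overlapped between mice. Gpi1, Eno1, Pgk1, Aldoa and Pkm all lay between 171 and 218 FPKM, and Eno1 exceeded Pgk1 in only 2 of the 4 mice.

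On GRCm38.p6 the genes lie on 6 chromosomes. Ldha (chr7:46842274-46855627), Gpi1 (chr7:34201327-34230336) and Aldoa (chr7:126795234-126800994) are on chromosome 7. Hk2 (chr6:82725025-82774454) and Tpi1 (chr6:124810586-124814158) are on chromosome 6, and Hk1 (chr10:62268855-62379920) and Pfkl (chr10:77986947-78009807) on chromosome 10. Pgk1 (chrX:106187100-106203699), Eno1 (chr4:150236708-150248879) and Pkm (chr9:59656576-59679372) each lie alone. The 3 enzymes on chromosome 7 did not share a direction, since Gpi1 was measured at a log2 fold change of 0.10, Aldoa at 0.00 and Ldha at -0.26.

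Promoters are shown for 4 genes, namely Ldha, the enzyme with the largest difference, Pgk1, a further member whose window held the same motif, and Pkm with its paralog Pklr, whose shares of pyruvate kinase FPKM did not overlap between genotypes. Each window is the 250 bases before a transcript start listed by RefSeq on GRCm38.p6, read on the strand of the gene, all 4 genes lying on the plus strand, and capitals mark ACGTG, the core of hypoxia response elements, or GGGCGG, the GC box, on either strand. The Pgk1 window is chrX:106186850-106187099, the Ldha window chr7:46845554-46845803, the Pkm window chr9:59656326-59656575 and the Pklr window chr3:89135892-89136141. RefSeq lists 2 windows each for Ldha, Pkm and Pklr, of which the first is shown. The Ldha window lies inside the annotated span of the gene, and the Pklr window reaches past its outermost start, since both belong to a later start.
Pgk1: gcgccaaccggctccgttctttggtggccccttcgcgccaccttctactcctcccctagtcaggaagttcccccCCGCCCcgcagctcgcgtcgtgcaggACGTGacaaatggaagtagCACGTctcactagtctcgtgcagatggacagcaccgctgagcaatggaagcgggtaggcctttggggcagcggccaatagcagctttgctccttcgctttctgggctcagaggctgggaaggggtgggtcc
Ldha: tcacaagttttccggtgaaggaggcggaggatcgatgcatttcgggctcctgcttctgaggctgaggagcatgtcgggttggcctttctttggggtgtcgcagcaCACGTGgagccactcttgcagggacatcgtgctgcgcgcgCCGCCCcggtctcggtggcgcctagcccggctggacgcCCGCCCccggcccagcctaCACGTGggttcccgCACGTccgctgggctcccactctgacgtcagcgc
Pkm: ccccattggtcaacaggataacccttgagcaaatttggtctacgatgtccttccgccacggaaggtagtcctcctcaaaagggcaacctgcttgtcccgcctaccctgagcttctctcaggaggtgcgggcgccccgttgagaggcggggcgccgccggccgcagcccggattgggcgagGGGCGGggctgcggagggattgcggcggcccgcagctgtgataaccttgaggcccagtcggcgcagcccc
Pklr: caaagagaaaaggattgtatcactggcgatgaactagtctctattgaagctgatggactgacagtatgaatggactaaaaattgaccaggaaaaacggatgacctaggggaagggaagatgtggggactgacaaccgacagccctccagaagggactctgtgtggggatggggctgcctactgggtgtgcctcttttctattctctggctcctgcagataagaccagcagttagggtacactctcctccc

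The Ldha window held 5 matches to ACGTG, of which 4 came from 2 copies of the E-box CACGTG, since each copy contains ACGTG on both strands. Pgk1 held 2 matches to ACGTG, and neither the Pkm nor the Pklr window shown held any. ACGTG was in 6 of the 17 windows of the 10 enzymes (35.3%, in Aldoa, Hk2, Ldha, Pgk1 and Pkm, the last in its other listed window) and in 16.6% of all 32851 promoter windows. CACGTG was in 1 of the 17 windows (5.88%), that of Ldha, and in 6.02% of all windows. GGGCGG was in 10 of the 17 windows (58.8%), from 8 of the 10 enzymes, and in 32.7% of all windows. TATAAA, the TATA box, was in none of the 17 windows, against 12.4% of all windows. These letters describe the windows and are not evidence of binding.

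The first steps trap and rearrange glucose. Hk1, the widely expressed hexokinase that phosphorylates glucose, was at 1.22 and 1.46 FPKM in Lgr5-WT mice and at 1.29 and 1.58 FPKM in Lgr5-CREPTKO mice. The genotypes overlapped, with a log2 fold change of 0.07 (SE 0.20, 95% interval -0.44 to 0.58, adjusted p = 0.860 by limma's moderated test). Hk2, the inducible hexokinase, was at 32.7 and 25.9 FPKM without deletion and at 30.5 and 34.8 FPKM with it. Again the ranges overlapped, and the difference of 0.16 (interval -0.19 to 0.52, adjusted p = 0.525) was smaller than the gap of 0.33 between the Lgr5-WT mice.

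Gpi1, which converts glucose 6-phosphate to fructose 6-phosphate, was measured at 197 and 204 FPKM in the Lgr5-WT and at 212 and 218 FPKM in the Lgr5-CREPTKO mice. Both Lgr5-CREPTKO values were above both others, by a small margin (log2 fold change 0.10, SE 0.07, interval -0.07 to 0.27, adjusted p = 0.411). Pfkl, a phosphofructokinase subunit of the committed step, was at 26.0 and 22.7 FPKM and at 28.8 and 27.8 FPKM in the same order of genotypes. It too stood higher in both Lgr5-CREPTKO mice, with the largest positive value of the 10 (0.22, SE 0.09, interval -0.02 to 0.46, adjusted p = 0.237).

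Aldoa and Tpi1 handle the split into triose phosphates. Aldoa, an aldolase that cleaves fructose 1,6-bisphosphate, read 179 and 199.9 FPKM in Lgr5-WT mice and 183 and 195 FPKM in Lgr5-CREPTKO mice. The Lgr5-CREPTKO values lay between the Lgr5-WT values, and the log2 fold change was 0.00 (SE 0.09, interval -0.22 to 0.22, adjusted p = 0.995). Tpi1, which interconverts the triose phosphates, read 279 and 257 FPKM against 215 and 252 FPKM. Both Lgr5-CREPTKO values were below both Lgr5-WT values, but only by 257 against 252 for the nearest pair, and the test did not call it (-0.20, SE 0.10, interval -0.47 to 0.06, adjusted p = 0.302).

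In the second phase, Pgk1, which makes ATP from 1,3-bisphosphoglycerate, was at 198 and 202 FPKM in Lgr5-WT mice and at 187 and 193 FPKM in Lgr5-CREPTKO mice. The gap was narrow and in the downward direction (-0.08, SE 0.07, interval -0.24 to 0.09, adjusted p = 0.524), and it stood at 0.0023, on the other side of 0, after rescaling every mouse to the same total. Eno1, the enolase that forms phosphoenolpyruvate, was at 178 and 194 FPKM and at 199.8 and 208 FPKM. Its Lgr5-CREPTKO values were the higher ones (0.13, SE 0.08, interval -0.06 to 0.33, adjusted p = 0.351).

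Pkm, the pyruvate kinase that makes pyruvate and ATP, was at 176 and 171 FPKM in Lgr5-WT mice and at 182 and 215 FPKM in Lgr5-CREPTKO mice. Both Lgr5-CREPTKO values exceeded the others, though mouse 2 alone stood far above them (log2 fold change 0.19, SE 0.10, interval -0.07 to 0.44, adjusted p = 0.318, and 0.07 without that mouse). Ldha, which converts pyruvate to lactate, was the most abundant of the 10 and was at 363 and 344 FPKM against 278 and 313 FPKM. Its Lgr5-CREPTKO values were lower in both mice, with a log2 fold change of -0.26 (SE 0.09, interval -0.49 to -0.03, unadjusted p = 0.0322, adjusted p = 0.163). The adjusted p of Ldha ranged from 0.153 to 0.422 over the alternatives.

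By position, the members did not share a direction. Ranges of the genotypes did not overlap for 7 of the 10, of which 3 (Tpi1, Pgk1 and Ldha) were lower and 4 (Gpi1, Pfkl, Eno1 and Pkm) higher in Lgr5-CREPTKO mice. Over all genes tested, 31.0% were lower without overlap and 25.6% higher, so the counts of 3 and 4 lay near the background. The median log2 fold change was 0.09 for the 10 enzymes and -0.01 for all genes tested, whose 5th to 95th percentiles ran from -0.75 to 0.46. For 5 of the 10, the larger gap between mice of 1 genotype exceeded the difference between genotypes.

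**Figure D2:**
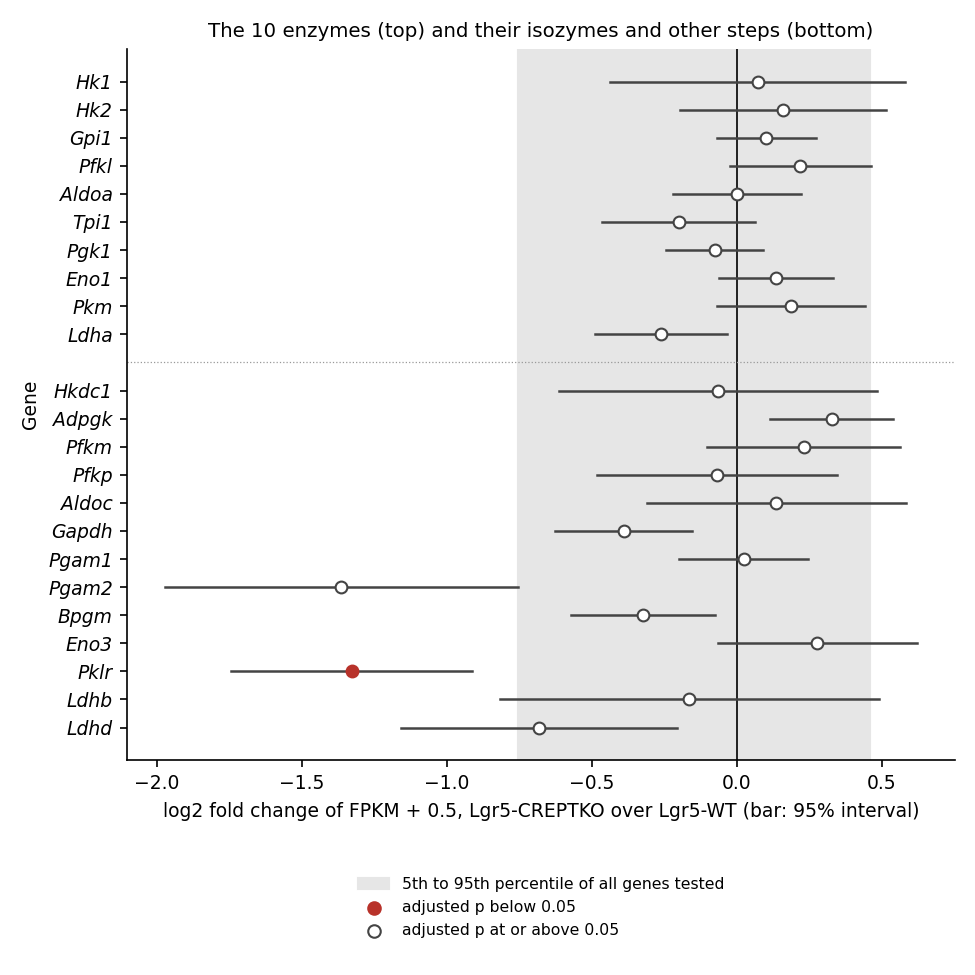
Log2 fold change of FPKM + 0.5 (Lgr5-CREPTKO over Lgr5-WT, x axis) with its 95% interval for the 10 enzymes (top) and for the 13 isozymes and other glycolytic enzymes that were tested (bottom). Grey marks the 5th to 95th percentile of all genes tested, and the filled point is Pklr at -1.33, the single gene called in either group.

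Added together, the 10 enzymes made up 1630 and 1622 FPKM in Lgr5-WT mice and 1517 and 1658 FPKM in Lgr5-CREPTKO mice. The Lgr5-CREPTKO mice lay on both sides of the Lgr5-WT pair. The means of 1626 ± 5.82 (SD, n = 2) and 1588 ± 99.4 (SD, n = 2) differed by -2.36%, with an exact two-sided permutation p of 1.0, where the smallest p that 2 against 2 allows is 0.333. As a share of all FPKM in a library the sum was 0.329% and 0.325% against 0.324% and 0.350%.

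Among the 5 isozyme families compared, the leading share differed most at pyruvate kinase. Pklr (chr3:89136122-89146815), a pyruvate kinase gene named after liver and red cells, was at 26.0 and 26.5 FPKM in Lgr5-WT mice and at 8.62 and 11.9 FPKM in Lgr5-CREPTKO mice. It fell to 39.2% of the Lgr5-WT mean (log2 fold change -1.33, SE 0.16, interval -1.74 to -0.91, limma's moderated test, adjusted p = 0.0372). Its call, like that of Rprd1b, was lost without the filter on low values, without the intensity trend of the fit and without any 1 mouse, where the log2 fold change of Pklr ranged from -1.55 to -1.10 and no gene was called. Pkm formed 87.1% and 86.6% of pyruvate kinase FPKM in Lgr5-WT mice and 95.5% and 94.7% in Lgr5-CREPTKO mice.

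The Pkm share was higher by 8.22 percentage points, and the genotypes did not overlap (exact permutation p = 0.333, the smallest possible, and 0.667 adjusted over 5 isozyme families).

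Pkm led its family in every mouse, and in the other 4 families, too, the same isozyme led in every mouse. Hk2 held 73.5% and 68.1% of the FPKM summed over Hk1, Hk2, Hk3 and Hkdc1 in Lgr5-WT mice and 76.5% and 71.0% in Lgr5-CREPTKO mice, and most of the rest was Hkdc1, a hexokinase domain protein, at 20.2% to 28.0%. Pfkl held 52.7% to 61.0% of phosphofructokinase FPKM beside Pfkm and Pfkp, the muscle and platelet types. Eno1 held 96.6% to 97.4% of enolase FPKM, and Ldha 99.5% to 99.7% of the lactate dehydrogenase pair it forms with Ldhb. The ranges of the genotypes overlapped in each of these 4 families (exact permutation p = 0.667 in each).

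**Figure D3:**
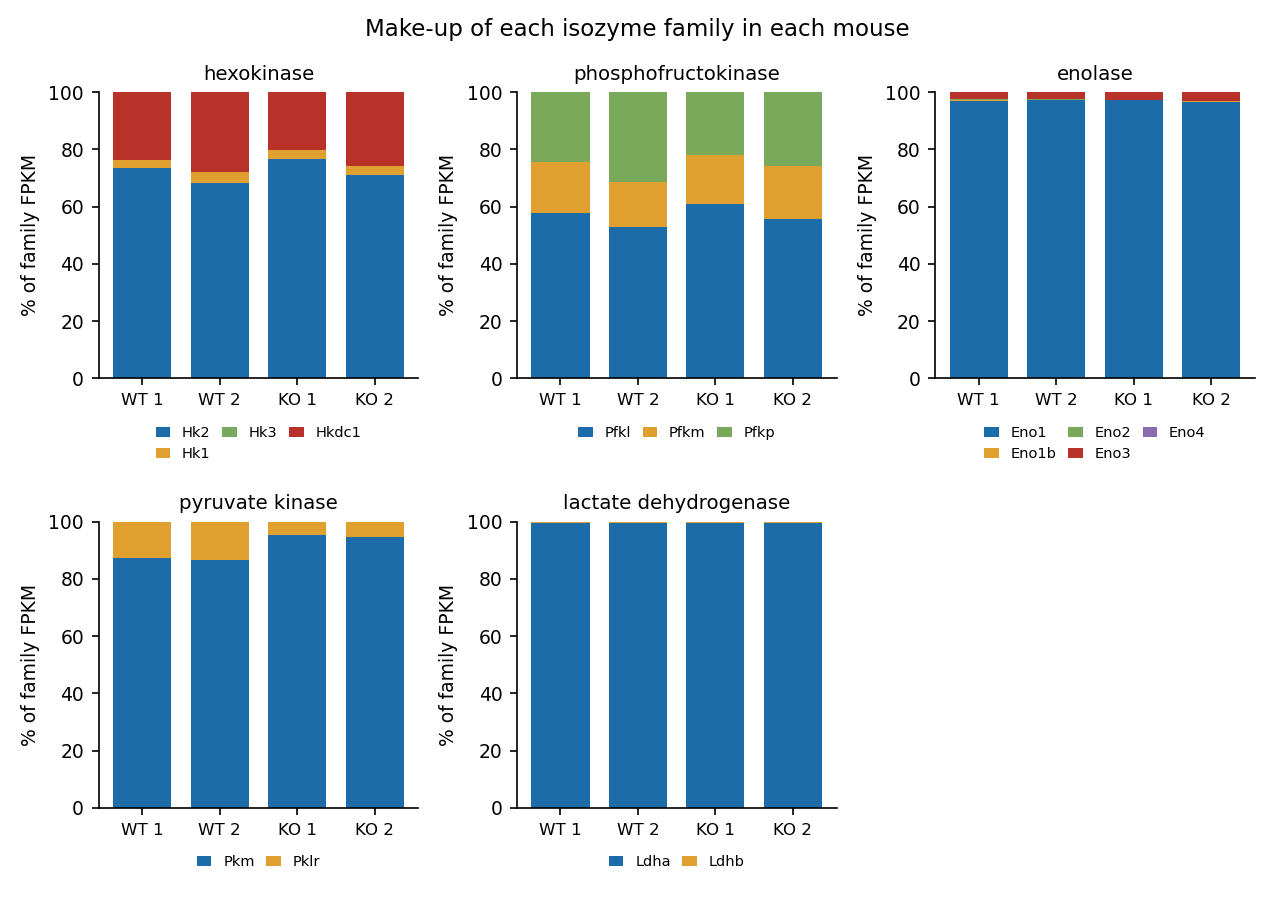
Share of each isozyme in the summed FPKM of its family (y axis, percent) for each of the 4 mice (WT, Lgr5-WT; KO, Lgr5-CREPTKO) in 5 families. The pyruvate kinase panel shows Pklr at 12.9% and 13.4% in the Lgr5-WT mice and at 4.52% and 5.27% in the Lgr5-CREPTKO mice.

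Markers of other cell types also differed between these libraries. Of 10 enteroendocrine markers 5 were called lower and all 10 were lower, with a summed FPKM of 192 and 212 in Lgr5-WT mice and 55.8 and 78.7 in Lgr5-CREPTKO mice. All 9 goblet markers were lower and 1 was called, with sums of 1478 and 2467 FPKM against 814 and 944 FPKM. Enterocyte markers overlapped, at 585 and 766 FPKM against 438 and 760.0 FPKM, with none of 10 called by limma and 1 lower at an unadjusted p below 0.05. The 6 tuft markers tested were all lower and none was called by limma, 4 having an unadjusted p below 0.05, with sums of 24.1 and 52.0 FPKM against 19.5 and 7.25 FPKM. Red cell markers were low and lower as well, Hba-a1 at 2.32 and 1.33 FPKM against 0.39 and 0.73 FPKM and Hbb-bs at 1.49 and 0.88 FPKM against 2 values listed at 0. These were the 2 genes tested of 10 stromal and red cell markers, and limma called neither, both having an unadjusted p below 0.05. Over all genes tested 2.67% were called lower, and 15.2% had an unadjusted p below 0.05 in the lower direction. The part of these markers in the values of Pklr was not tested.

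Beyond the 10 enzymes, 20 further glycolytic genes were listed, of which 18 were in the table and 13 were tested. Pklr was called lower and none was called higher, while 5 had an unadjusted p below 0.05 in the lower direction and 1 in the higher. Over all genes tested those shares were 15.2% and 9.27%. Their median log2 fold change was -0.07, against -0.01 for all genes. Gapdh, the dehydrogenase between Tpi1 and Pgk1, was the most abundant of these genes and of the 10 enzymes, at 658 and 711 FPKM in Lgr5-WT mice and 494 and 552 FPKM in Lgr5-CREPTKO mice. Both Lgr5-CREPTKO values were lower, and the log2 fold change of -0.39 (SE 0.09, interval -0.63 to -0.15) had a limma adjusted p of 0.0896.

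Pgam1, the phosphoglycerate mutase of the step between Pgk1 and Eno1, was somewhat below the 7 abundant enzymes at 134 and 149 FPKM against 149 and 138 FPKM (0.02, limma adjusted p = 0.898). Its muscle form Pgam2 was at 2.28 and 1.95 FPKM against 0.67 and 0.38 FPKM (log2 fold change -1.36, limma adjusted p = 0.0578). Adpgk, which phosphorylates glucose with ADP, was at 20.9 and 19.2 FPKM against 25.6 and 24.8 FPKM (0.33, limma adjusted p = 0.1002).

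Sequence shared with other genes bears on how far these levels belong to a single gene. Words of 50 bases from the longest protein-coding transcript occurred also in other annotated genes for 72.2% of Eno1, mostly in Eno1b, and for 68.0% of Pgk1, mostly in Pgk1-rs7. The share was 34.4% for Pkm, 19.3% for Gpi1, 16.6% for Ldha, 13.5% for Aldoa and 7.51% for Tpi1, and it was 0.0% for Hk1 and Hk2 and 0.054% for Pfkl. Of the leading copies of the members, Eno1b was in the table, at 0.00 to 0.76 FPKM. Gapdh shared 82.5% and Pklr 0.0%. The Eno1 and Pgk1 values are therefore uncertain where reads were divided between copies.

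Pathways that meet glycolysis were read from 8 further lists, from the same test of all genes. Among 86 genes tested in them, 2 were called lower and none higher, near the 2.67% and 0.412% of all genes. Pck2, the mitochondrial enzyme that makes phosphoenolpyruvate, was at 37.5 and 42.9 FPKM against 24.9 and 26.5 FPKM (log2 fold change -0.63, SE 0.10, limma adjusted p = 0.0472). That call was lost under 10 of 13 alternatives, among them each mouse left out in turn. Idh3g, a subunit of mitochondrial isocitrate dehydrogenase, was at 165 and 164 FPKM against 111 and 114 FPKM (-0.55, SE 0.06, limma adjusted p = 0.0336), and its call was lost under 7 of 13, again with any 1 mouse left out.

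The other genes of the lists that hold Pck2 and Idh3g were not called. The 16 tested genes of the TCA cycle had a median of 0.00, the 7 of gluconeogenesis 0.12, the 7 of pyruvate entry into mitochondria -0.04 and the 8 of the pentose phosphate pathway -0.06. In the pentose phosphate pathway H6pd, its dehydrogenase of the endoplasmic reticulum, was at 5.24 and 5.70 FPKM against 8.63 and 9.55 FPKM (0.68, limma adjusted p = 0.0514, called higher under 5 of 13 alternatives), and G6pdx, its first cytosolic enzyme, at 31.8 and 28.9 FPKM against 21.0 and 25.6 FPKM (-0.38, limma adjusted p = 0.146).

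Uptake and control of glycolysis gave no calls in limma's test, and 4 regulators had an unadjusted p below 0.05, all in the higher direction (9.27% of all genes), against 0 transporters. Of 9 glucose and lactate transporters tested the median was 0.01, and Slc2a2, a glucose transporter, had the widest spread at 1.12 and 1.88 FPKM against 1.09 and 3.63 FPKM. Among 18 regulators tested the median was 0.11. Pfkfb3 and Pfkfb4, which set the level of the activator fructose 2,6-bisphosphate, had log2 fold changes of -0.43 and 0.38 in opposite directions (limma adjusted p = 0.262 and 0.0888). The 8 genes of the serine and glycerol branches had a median of 0.08. The 13 hypoxia response genes also had a median of 0.08, led by Ndrg1 at 26.8 and 38.0 FPKM against 52.8 and 35.0 FPKM (0.42, limma adjusted p = 0.367).

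**Figure D4:**
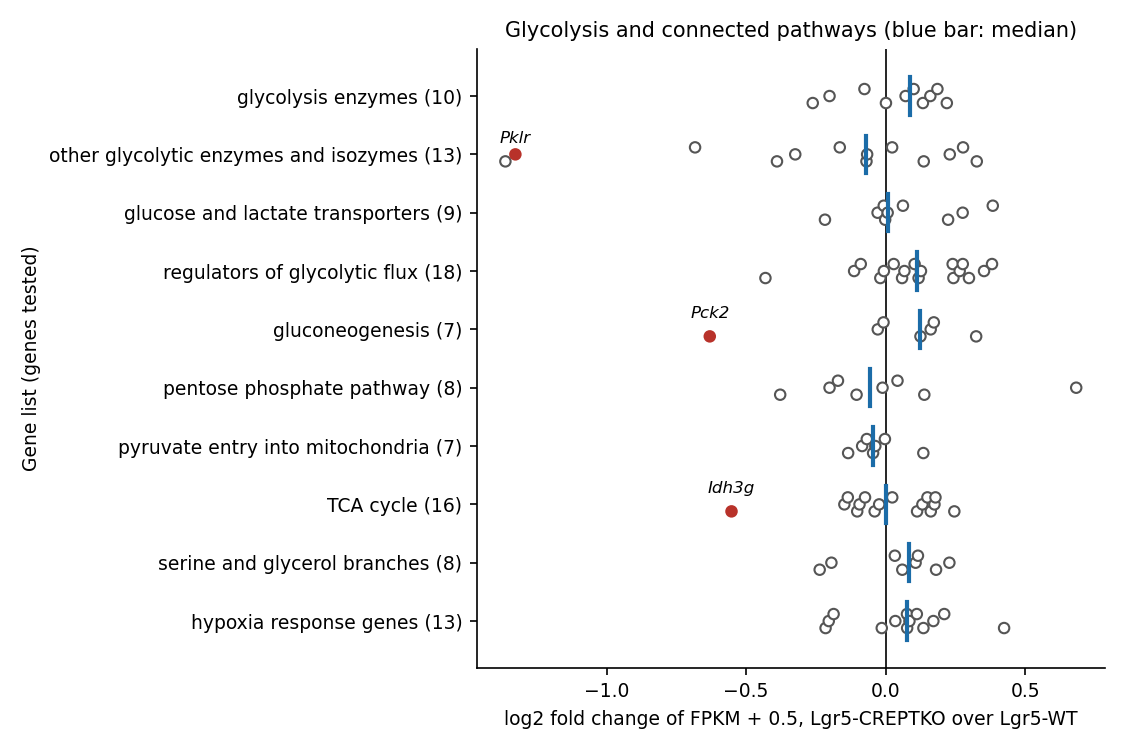
Log2 fold change of FPKM + 0.5 (x axis) for each tested gene of the 10 glycolysis enzymes and of 9 connected lists (y axis, number tested in brackets), with the median as a blue bar. Filled points are the 3 genes called, Pklr, Pck2 and Idh3g, and the glycolysis enzymes lie between -0.26 and 0.22.

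Between the 2 mice of a genotype the enzymes differed by 0.03 to 0.33 on the log2 scale. Lgr5-CREPTKO mouse 2 was above mouse 1 for 9 of the 10 enzymes, Pfkl being the exception, and in the summed FPKM of the members this gap was larger than the gap between the Lgr5-WT mice. Paneth markers, with sums of 851 FPKM in Lgr5-CREPTKO mouse 1 and 2610 FPKM in mouse 2, were also higher in mouse 2. In the Lgr5-WT mice the Paneth sums were 1439 and 1053 FPKM. Immune markers were higher in Lgr5-CREPTKO mouse 2 too, with 285 and 923 FPKM, and Cd74 made up 94.9% to 98.7% of them over the 4 mice. The Lgr5-WT mice differed likewise in immune markers, at 524 and 1193 FPKM. Enterocyte (438 and 760 FPKM), goblet and enteroendocrine sums were also higher in Lgr5-CREPTKO mouse 2. Stem cell (6768 and 6555 FPKM), tuft and proliferation marker sums were lower there. The part of these markers in the glycolysis values was not tested.

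**Figure D5:**
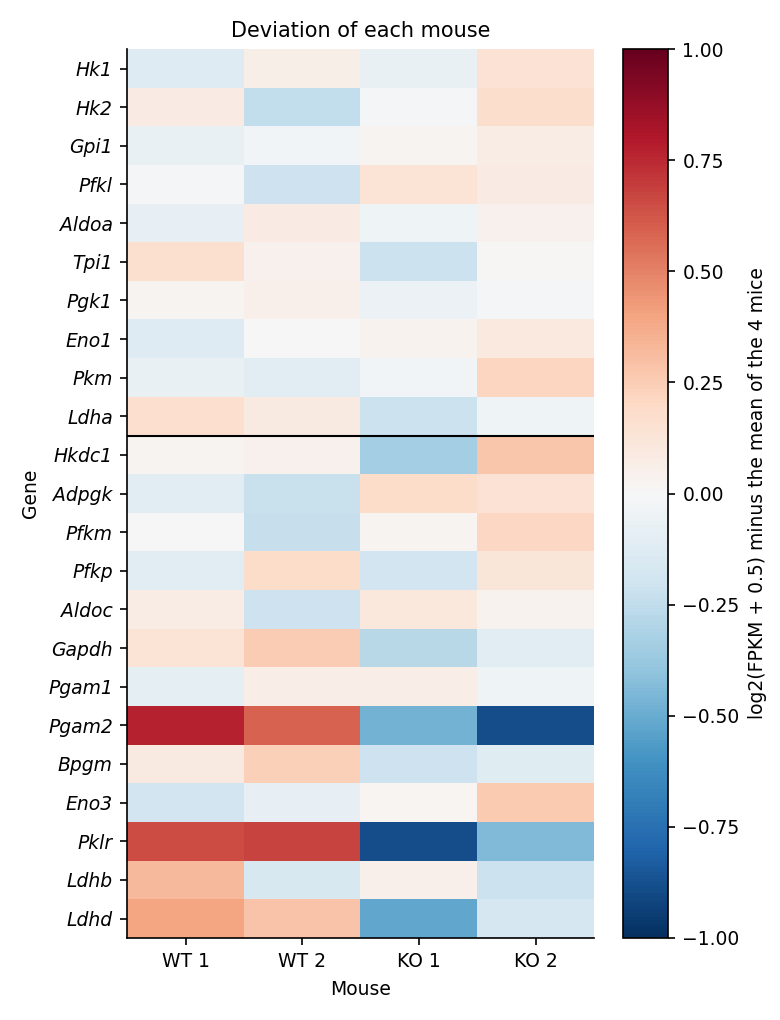
Deviation of log2(FPKM + 0.5) in each mouse from the mean of the 4 mice (colour, red above and blue below) for the 10 enzymes above the line and 13 other glycolytic genes under it. The 10 enzymes stay pale in every mouse, whereas Pklr and Pgam2 are dark red in both Lgr5-WT mice and blue in both Lgr5-CREPTKO mice.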

How the data were processed

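RNA of sorted Lgr5-GFPhigh cells from 4 mice was analysed, 2 per genotype, and mice were assigned to genotypes by the sample titles, which are the column names. The authors deposited FPKM values with 2 decimals per gene and mouse. By the study's methods, Bowtie2 mapped the reads to transcripts of GRCm38.p6 and RSEM estimated the gene levels. Those methods name crypts and intestines and not the sorted cells, so the same steps are assumed here. The submitters' notes also name HISAT and mm10. FPKM carries no counts, so the study's count model was not applied, depth is unknown, and only relative levels are given.

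Values were taken as log2(FPKM + 0.5), which understates changes of low genes. Genes that averaged 0.5 FPKM or more were fitted with limma 3.58.1 (lmFit, eBayes with an intensity trend) in R 4.3.3, and p-values were adjusted by Benjamini-Hochberg over 12621 genes. Called means an adjusted p below 0.05. Summed FPKM and isozyme shares were compared over mice by exact two-sided permutation tests in scipy 1.17.1. The script was tested on simulated data. The glycolysis enzymes, gene lists and markers were chosen with earlier results of these data known.

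Named were the 10 enzymes, Rprd1b and genes of the glycolytic list. From each other pathway list, at most 3 called genes were named or, where none was called, at most the 2 with the largest changes. The few marker genes named did not follow this rule. Words of 50 bases were compared within GENCODE M21, and promoter windows and coordinates came from RefSeq, where all 10 enzymes matched. The pseudocount, filter, scaling, trend, replicate block, fold limit and each mouse left out were varied. Some isozymes, with the shares of their family, are not reported here and were left out of the glycolytic list and the isozyme families, not out of the fit.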

Additional observations from a re-analysis of the deposited data

How the results depend on the processing

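None of the 10 enzymes was called under any of 13 alternatives. Several of these, given below, called no gene at all, so the lack of calls there says nothing about the enzymes. Of the 10 enzymes, 6 kept their direction in all 13 alternatives, while 6 of 130 values changed direction. Those were Pgk1 at 0.0023 after rescaling every mouse to the same FPKM total and, with 1 mouse left out, Hk1 (-0.0367 to 0.18), Aldoa (-0.0799 to 0.0824) and Hk2 (-0.0045 to 0.3251). The median of the enzymes was 0.16 after that rescaling, 0.19 after quantile normalisation and 0.0151 to 0.14 with 1 mouse left out. Enzymes with an unadjusted p below 0.05 by limma numbered 4 after rescaling, 4 after quantile normalisation and 2 after centring each mouse on its median. In the first 2 cases they were Gpi1, Pfkl, Eno1 and Pkm, all higher in Lgr5-CREPTKO mice. After centring they were Ldha, lower, and Pfkl, higher. Of 12621 genes tested, 1409 lower and 1960 higher had such a p after rescaling. The counts were 1544 and 1571 after quantile normalisation, and 1707 and 1393 after centring. After rescaling, the largest difference was that of Pfkl at 0.30, and Ldha stood at -0.18. The difference in summed FPKM was 3.07% after rescaling and -6.68% to 1.97% with 1 mouse left out, positive without Lgr5-CREPTKO mouse 1. The 389 genes called became 0 without the filter (adjusted p of at least 0.105 by limma, with an unadjusted p below 0.05 for 2250 genes in the lower and 1320 in the higher direction), 4 without the trend, 144 with the added fold limit, and 0 to 0 with any 1 mouse left out (smallest limma adjusted p 0.144 to 0.305). The 3 called genes of the pathway lists became 0 without the filter, 0 without the trend and 0 to 0 with 1 mouse left out. H6pd was called higher under 5 of 13 alternatives, in place of Pck2 under 3 of them. With mouse number as a replicate block 183 genes and 1 pathway gene, Pklr, were called. Same-numbered mice are different animals, and their deviations did not correlate across genes (r = -0.0266), so the numbers do not pair them. With 2 mice per genotype, the intervals printed limit how small a difference could be seen.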
